A study of Mus musculus with 21 samples.

Results

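The genes described here were 51 genes of G2 and mitosis, taken as a list by name from the 17516 gene symbols counted in every library. All 51 were among the symbols. They were read in 21 single-cell RNA libraries of OT1 CD8 T cells, mouse T cells that carry 1 transgenic receptor for an ovalbumin peptide. The design compared IL-2, IL-15 and a mutant of IL-2, IL-2v, at 2 doses over a culture after activation. Each condition had 1 library, so no difference below has a replicate check, and no p-value is given. Intervals are exact 95% intervals that cover counting error only.

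The libraries were naive cells on day 0, cells activated with beads coated with anti-CD3 and anti-CD28 and left without cytokine until day 3 or day 5, and activated cells given IL-2, IL-2v or IL-15 at 5 or 50 IU/mL, with libraries made on days 3, 5 and 10. All cultured libraries shared the bead activation, and the cultures without cytokine stand on days 3 and 5. All cells came from the OT1 line, so every library shares 1 T cell receptor. IL-2v is labelled as a mutant IL-2 (mutant IL-2bg). The treatment labels of the 50 IU/mL IL-2 libraries name interleukin-3 and those of the 50 IU/mL IL-15 libraries interleukin-16, and the titles and the design text were followed. The extraction text describes cells sorted from tumours while the growth text describes these cultures, and the growth text was followed.

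A cell that has copied its DNA enters G2 and then mitosis when the kinase CDK1, bound to a B cyclin, becomes active. The kinases, motors and kinetochore proteins that act next condense the chromosomes, build the spindle and attach chromosomes to it, and a ubiquitin ligase, the anaphase-promoting complex, then degrades cyclins so that the cell divides. The genes for these proteins are transcribed mainly in late S phase, G2 and mitosis, under the control of the DREAM, B-MYB and FOXM1 factors, and naive T cells, which rest outside the cycle, express little of them.

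Promoters of this class often hold a CCAAT box and a short element called the cell cycle homology region. Windows from 250 bases before to 50 bases after an annotated start were given by RefSeq on GRCm38.p6, the build of mm10, and 50 windows matched 45 of the 51 members. The letters TTTGAA or TTCGAA, the usual forms of that element, were found on either strand in 37 of the 50 windows (74%) and in 19.2% of the 32851 windows of all genes. The letters CCAAT stood in 38 of the 50 (76%) and in 37.4% of all windows. Both were present in 31 (62%) and in 7.52% of all. A match of letters is a description of the window, not a site that was shown to be used, and the 2 kinds were counted separately, so matches may overlap. Stretches of 120 bases that end just before the start are shown for 6 members with results below, to let the arrangement be seen. Capitals mark these letters, read on either strand, so that ATTGG and TTCAAA are the same motifs on the opposite strand. All 6 stretches lie upstream of the gene as annotated by GENCODE. RefSeq gave Psrc1 a second start, which lies within the stretch shown.
Ccnb2 (chr9:70421555-70421674, minus strand): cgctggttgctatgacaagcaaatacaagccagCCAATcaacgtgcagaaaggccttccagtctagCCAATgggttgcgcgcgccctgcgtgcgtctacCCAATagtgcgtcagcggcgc
Top2a (chr11:99024190-99024309, minus strand): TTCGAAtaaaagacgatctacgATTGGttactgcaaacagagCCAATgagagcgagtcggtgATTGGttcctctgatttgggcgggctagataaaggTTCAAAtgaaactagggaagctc
Mki67 (chr7:135716380-135716499, minus strand): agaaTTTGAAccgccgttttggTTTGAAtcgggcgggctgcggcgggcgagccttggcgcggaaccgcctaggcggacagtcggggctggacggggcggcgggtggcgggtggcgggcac
Kif11 (chr19:37376262-37376381, plus strand): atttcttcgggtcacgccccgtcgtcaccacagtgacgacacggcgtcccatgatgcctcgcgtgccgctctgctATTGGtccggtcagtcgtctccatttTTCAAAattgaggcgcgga
Nusap1 (chr2:119618178-119618297, plus strand): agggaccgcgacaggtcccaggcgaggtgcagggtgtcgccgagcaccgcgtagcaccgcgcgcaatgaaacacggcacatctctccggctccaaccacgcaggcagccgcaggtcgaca
Psrc1 (chr3:108383718-108383837, plus strand): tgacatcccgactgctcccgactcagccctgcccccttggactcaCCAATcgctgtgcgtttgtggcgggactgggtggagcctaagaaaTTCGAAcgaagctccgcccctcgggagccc
The Ccnb2 stretch holds 3 CCAAT boxes and no element of the other kind, the Mki67 stretch holds 2 of the other kind and no CCAAT box, and the Top2a stretch holds 2 and 3. The Kif11 and Psrc1 stretches hold 1 of each, and the Nusap1 stretch holds neither. The full windows of Ccnb2 and Mki67 hold both kinds, with 3 CCAAT boxes and 2 of the other element in each. Those of the other element in Ccnb2 lie before the stretch and just after the start. The CCAAT boxes in Mki67 all lie before the stretch. The stretch before the other Psrc1 start (chr3:108383684-108383803) holds the CCAAT box alone, with the TTCGAA letters just after that start. Nothing about a factor follows from a match or from its absence in these windows.

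Libraries held 3250 to 7105 cells after filtering (2 cells were removed in all) and 10589950 to 32648496 unique molecular identifiers (UMIs, tags that mark single captured RNA molecules), with medians of 3016 to 5065 UMIs per cell. The T cell genes Cd3d and Cd8b1 had a UMI in 93.0% to 99.5% and in 54.5% to 92.0% of cells. Of other cell types, the myeloid genes Lyz2 and Itgam were seen in at most 0.126% and 1.66% of cells, the NK cell gene Klrb1c in at most 13.0%, the B cell gene Cd79b in at most 7.45%, and Cst3, also listed as myeloid, in 20.7% to 41.3%. Their part in the results was not tested. Between 1 and 19 barcode sequences were shared by any 2 libraries.

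Summed over the 51 members, the level in naive cells was 1454 CPM (UMIs per 1000000 UMIs of the library), with an interval of 1437 to 1471. On day 3, the 7 libraries ranged from 7342 in 50 IU/mL IL-15 to 9284 in 50 IU/mL IL-2v, with a median of 8041, the value without cytokine. On day 5, the range opened from 2397 without cytokine to 9246 in 50 IU/mL IL-2v, with a median of 4770. On day 10, the 6 libraries ran from 1299 in 5 IU/mL IL-15 to 6807 in 5 IU/mL IL-2v, with a median of 2340. Libraries of day 3 thus lay close together and far above naive cells, while those of days 5 and 10 covered almost the whole range between them. The spread between cultures of 1 condition is not known. A higher sum can mean more cells in G2 and mitosis or more of this RNA in each, which the sums cannot tell apart.

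There are 10 members that are also well known outside mitosis: Hmgb2, Tmpo, Cks1b, Cbx5, Lbr, Anp32e, Tubb4b, Rangap1, Ckap5 and Smc4. This list was made with earlier results of these data known, so a match of a result with it is not independent support. These 10 made up 1158 of the 1454 CPM in naive cells, and the other 41 members 296. Those 41 reached 4380 CPM on day 3 without cytokine and 726 on day 5. They peaked at 5480 in 50 IU/mL IL-2v on day 5 and were lowest, at 206, in 5 IU/mL IL-15 on day 10, below naive cells. Hmgb2, a DNA-bending chromatin protein, alone supplied 24.7% of all member UMIs, and Top2a, the topoisomerase that untangles sister chromosomes, 8.02%. The summed level without Hmgb2 ran from 982 CPM in 5 IU/mL IL-15 on day 10 to 7401 in 50 IU/mL IL-2v on day 5.

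**Figure D1:**
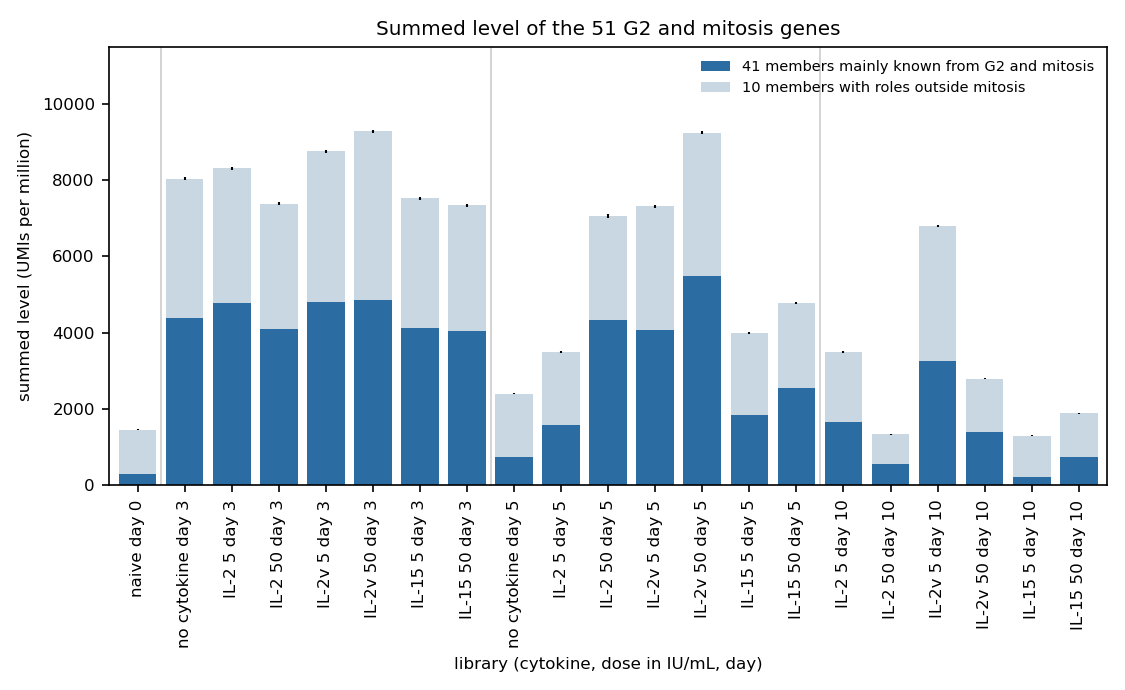
Summed level of the 51 genes in CPM (y axis) in each of the 21 libraries (x axis), split into the 41 members mainly known from G2 and mitosis (dark) and the 10 with other roles (light), with exact 95% counting intervals of the total as thin bars. The total was 1454 in naive cells, 7342 to 9284 on day 3, and was below the naive value only in 50 IU/mL IL-2 and 5 IU/mL IL-15 on day 10.

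Over all 21 libraries, 21 members were highest in 50 IU/mL IL-2v on day 5 and 10 in 50 IU/mL IL-2v on day 3, while 34 were lowest in 5 IU/mL IL-15 on day 10, 9 in 50 IU/mL IL-2 on day 10 and 6 in naive cells. On days 5 and 10, most members shared their highest library of the day. On day 5, 43 of the 51 had their highest level of that day in 50 IU/mL IL-2v, and 49 had their lowest without cytokine. On day 10, 49 were highest in 5 IU/mL IL-2v, 38 were lowest in 5 IU/mL IL-15 and 12 in 50 IU/mL IL-2. Day 3 had no such order: 19 were highest in 50 IU/mL IL-2v and 18 in 5 IU/mL IL-2, while 16 were lowest in 50 IU/mL IL-2. No share of all genes stands beside these counts of highest and lowest libraries, so they are not read as particular to the members. In at least 1 library, 50 members reached 20 CPM. Cdc25c, the phosphatase that activates CDK1, did not, and its highest value was 18.4 CPM. In naive cells, 14 members reached 20 CPM. No share of all genes stands beside the counts at 20 CPM, so they are not read as particular to the members.

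**Figure D2:**
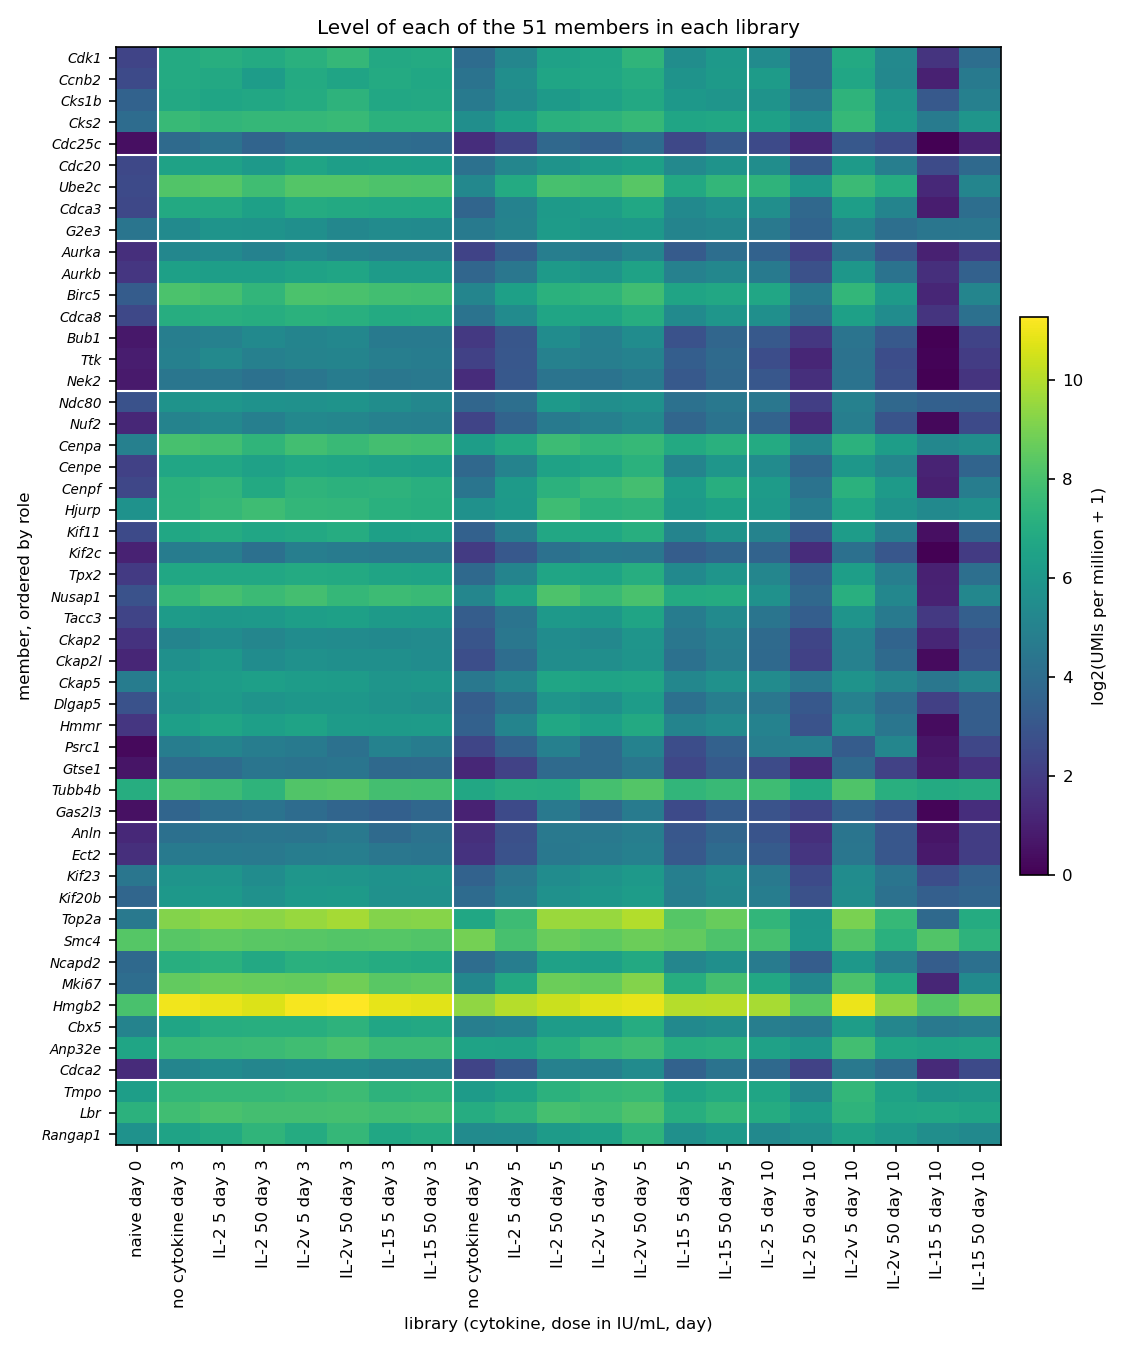
Level of each of the 51 members (rows, ordered by role with white lines between the 8 roles) in each of the 21 libraries (columns), as log2(CPM + 1). Nearly all rows brighten on day 3 and darken without cytokine on day 5 and in 5 IU/mL IL-15 on day 10. On day 10, Psrc1 has similar values in 5 IU/mL IL-2, 50 IU/mL IL-2 and 50 IU/mL IL-2v.

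Among CDK1 and its partners, Cdk1 itself was at 3.95 CPM in naive cells. It stood at 111 to 181 CPM on day 3 (median 119), 14.7 to 166 on day 5 (median 66.5) and 2.27 to 117 on day 10 (median 27.1). The highest value of each day was in an IL-2v library. Ccnb2, cyclin B2, was at 4.82 CPM in naive cells, 74.7 to 119 on day 3, 18.5 to 127 on day 5 and 1.07 to 102 on day 10. On day 3 it was highest without cytokine and lowest in 50 IU/mL IL-2, while Cdk1 was highest in 50 IU/mL IL-2v. Cks2, a small adaptor of the kinase, was at 14.8 CPM in naive cells and at 25.3 in its lowest cultured library, 5 IU/mL IL-15 on day 10. Its value is uncertain, since 29.7% of the 50-base words of its longest transcript also occur in the gene model Gm15452. The same holds for Tubb4b (43.6% shared with Tubb4b-ps1), Hmgb2 (19.6% with Gm4739) and Cdc20 (11.3% with Gm7856). Exons of Ube2c overlap those of Tnnc2 on the opposite strand over 22.8% of their length, and those of Cdc25c overlap Gm3550, also on the opposite strand, over 12.7%.

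Of the ubiquitin ligases and their partners, Ube2c, the ubiquitin-conjugating enzyme of the anaphase-promoting complex, was at 4.76 CPM in naive cells and between 229 and 314 on day 3. Without cytokine it was at 38.1 CPM on day 5, against 325 in 50 IU/mL IL-2v. On day 10 it ran from 1.46 CPM in 5 IU/mL IL-15 to 205.5 in 5 IU/mL IL-2v. G2e3, a ubiquitin ligase with a role in the DNA damage response, varied far less: it was at 20.2 CPM in naive cells and 73.2 at its highest, in 50 IU/mL IL-2 on day 5.

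For the kinases, checkpoint and chromosomal passenger genes, Birc5 (survivin, a passenger protein that guides Aurora B) was at 8.72 CPM in naive cells and 169 to 273 on day 3. On day 5 it ranged from 34.3 without cytokine to 229 in 50 IU/mL IL-2v, and on day 10 from 1.33 in 5 IU/mL IL-15 to 175 in 5 IU/mL IL-2v. Bub1, a kinase of the spindle checkpoint, and Nek2, a centrosome kinase, had no UMI in 5 IU/mL IL-15 on day 10, as did Cdc25c and the kinesin gene Kif2c. The limit set for a count of 0, which is 3 counts, comes to 0.129 CPM in that library. The whole group summed to 6.52 CPM in that library and to 19.8 CPM in naive cells.

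In the centromere and kinetochore group, Cenpa, the histone variant that marks centromeres, was at 29.2 CPM in naive cells and at 256 without cytokine on day 3. Cenpf, a kinetochore-associated protein of G2, went from 4.22 CPM to 146 in the same pair of libraries and to 243 in 50 IU/mL IL-2v on day 5. Hjurp, the chaperone that loads Cenpa, was at 53.1 CPM in naive cells and highest in 50 IU/mL IL-2, at 217 CPM on day 3 and 217 on day 5.

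In the spindle group, Nusap1, which bundles spindle microtubules, was at 6.12 CPM in naive cells, 181 to 245 on day 3, 35.3 to 276 on day 5 and 1.12 to 137 on day 10. Tubb4b, a tubulin used in all cells, stayed between 109 and 316 CPM over all 21 libraries. Among the cytokinesis genes, Kif20b, a kinesin of the dividing midzone, was at 12.1 CPM in naive cells, at most 74.5 on day 5 and at least 5.94 on day 10. In the chromatin group, Mki67, which coats mitotic chromosomes, ran from 1.33 CPM in 5 IU/mL IL-15 on day 10 to 588 in 50 IU/mL IL-2v on day 5, against 15.2 in naive cells. In the nuclear envelope group, Lbr, the lamin B receptor, was between 75.2 and 283 CPM in all 21 libraries.

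Activation without cytokine was compared on day 3 with naive cells. Of the 47 members that reached 20 CPM in either library, 41 were at least 2-fold higher and none was lower, beside 684 of the 6171 genes tested (11.1%) that were higher. This count follows a filter that most members passed through the day 3 library alone. The same filter shapes every count of members below, since a member that passes through 1 library alone is by construction higher there. The summed level was 5.53-fold that of naive cells (5.46 to 5.60). The largest log2 differences, taken on log2(CPM + 1), were those of Ube2c (5.70), Birc5 (4.82), Cenpf (4.81) and Tpx2 (4.80), the activator of Aurora A. The smallest were those of Smc4 (0.07), a condensin subunit already at 316 CPM in naive cells, Lbr (0.59), Rangap1 (0.81) and Anp32e (0.91), 4 of the members with other roles. All 47 differences were positive, with a median of 3.71, while the median of all genes was -0.11. Of 32 further G2 and mitosis genes outside the list, 30 were at least 2-fold higher. S phase genes were higher in 34 of 40, with a smaller median of 2.04.

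Between day 3 and day 5 without cytokine, 44 of 47 members were at least 2-fold lower on day 5, beside 9.47% of all genes tested. The summed level was 3.36-fold lower (3.32 to 3.39). Mki67 had the lowest log2 difference (-3.35), followed by the spindle motor Kif11 (-3.24), Cdca3 (-3.17) and the condensin subunit Ncapd2 (-3.02). Smc4 went the other way, from 331 to 486 CPM, its highest value in any library. G2e3 (-0.72) and Lbr (-0.86) were lower by less than 2-fold. Without cytokine on day 5, 42 members were above their naive level and 9 below, by sign alone and without a filter. In that library 31 members were below 20 CPM. The share of all genes above their naive level is not given, so the count of 42 is not read further. Of the 21 members that reached 20 CPM in that library or in naive cells, 10 were at least 2-fold higher than in naive cells, beside 3.54% of all genes tested. Cells with over 2 times the library's median UMIs were 6.09% of cells in that library and held 37.6% of its member UMIs. Without cytokine on day 5, these large cells had 6558 CPM of the members, against 1734 in the rest. Leaving large cells out, here or below, thus also removes cells rich in the members, and counts without them are an alternative, not a correction. Whether such large cells are doublets, here or below, was not tested.

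Cytokines were then set against no cytokine on the same day, with 1 control library shared by the 6 comparisons of a day. On day 3, no member was 2-fold apart in either direction in any of the 6. The same rule called 0.248% of all genes in 5 IU/mL IL-2, 9.19% in 50 IU/mL IL-2, 0.282% in 5 IU/mL IL-2v, 9.57% in 50 IU/mL IL-2v, 0.427% in 5 IU/mL IL-15 and 1.08% in 50 IU/mL IL-15. The median log2 differences of the members lay between -0.13 and 0.16. They changed sign with another scaling in both 50 IU/mL comparisons of IL-2 and IL-2v, so no direction is given for these medians.

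Within that narrow span, the members did not sit together at the high doses. In 50 IU/mL IL-2v on day 3, Rangap1 (0.95), Cbx5 (0.65), Cdk1 (0.62) and Top2a (0.59) were highest against no cytokine, and Psrc1 (-0.60), Cenpa (-0.37), Ccnb2 (-0.31) and Hmmr (-0.18) were lowest. For 50 IU/mL IL-2 the ends were Rangap1 (0.80), Hjurp (0.53), Bub1 (0.51) and Cbx5 (0.45) against Birc5 (-0.69), Ccnb2 (-0.66), Cenpa (-0.64) and Tubb4b (-0.62). Ccnb2 and Cenpa, which encode a mitotic cyclin and the centromere histone, were thus among the 4 lowest in both. The 2 comparisons share the library without cytokine, so they are not independent. In that library Ccnb2 (119 CPM) and Cenpa (256 CPM) had their highest values of day 3. The S phase list, by contrast, had medians of 0.64 in 50 IU/mL IL-2v and 0.28 in 50 IU/mL IL-2, with 6 and 0 genes at least 2-fold higher.

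On day 5, all 6 cytokine libraries were above the library without cytokine, and 50 IU/mL IL-2v was the highest. At 5 IU/mL IL-2, 15 of 34 members tested were at least 2-fold higher, beside 2.14% of all genes. At 50 IU/mL IL-2, 41 of 47 were, beside 16.5%. At 5 IU/mL IL-2v the count was 43 of 46, beside 9.75%, and at 50 IU/mL IL-2v 49 of 50, beside 21.1%. For IL-15 it was 22 of 35 at 5 IU/mL, beside 1.42%, and 26 of 38 at 50 IU/mL, beside 5.82%. No member was 2-fold lower in any of the 6, but the shares of all genes that were lower are not given, so this is not read further. The number of members tested grows with the level of the cytokine library, since most of them are below 20 CPM without cytokine.

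The summed level on day 5 was 3.86-fold that without cytokine in 50 IU/mL IL-2v (3.82 to 3.89), 3.05-fold in 5 IU/mL IL-2v, 2.94-fold in 50 IU/mL IL-2, 1.99-fold in 50 IU/mL IL-15, 1.66-fold in 5 IU/mL IL-15 and 1.46-fold in 5 IU/mL IL-2. Parts of this order turned without cells over 2 times the median UMIs: 5 IU/mL IL-2v and 50 IU/mL IL-2 were then at 3.70-fold and 3.78-fold, and 5 IU/mL IL-15 and 5 IU/mL IL-2 at 1.33-fold and 1.45-fold. The 41 members without other roles also summed to more in 50 IU/mL IL-2 (4325 CPM) than in 5 IU/mL IL-2v (4059 CPM). Mki67 was among the 4 highest members in all 6 comparisons, with log2 differences from 1.59 in 5 IU/mL IL-2 to 3.98 in 50 IU/mL IL-2v. Kif11 reached 3.59 in 50 IU/mL IL-2v, and Bub1 was highest in 50 IU/mL IL-2, at 3.62. Smc4 was the lowest member in all 6, between -0.91 and -0.19. The 6 comparisons share 1 control library, so they are not independent. In that library Smc4 had its highest value of all libraries (486 CPM) and Mki67 its lowest of day 5. In 5 IU/mL IL-15 the count was 8 of 21 members tested without cells over 2 times the median UMIs, beside 0.726% of all genes. Those cells were 8.80% of cells there and held 53.2% of the member UMIs. In 5 IU/mL IL-2 they were 4.27% of cells with 34.9% of the member UMIs.

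IL-2v was set against IL-2 in 6 pairs that matched in day and in dose, which are not replicates. The summed members were higher with IL-2v in all 6 pairs, by 1.05-fold and 1.26-fold on day 3 (5 and 50 IU/mL), 2.09-fold and 1.31-fold on day 5, and 1.95-fold and 2.10-fold on day 10. In the 5 IU/mL pair of day 3, only 24 of 47 members were higher, and their median changed sign with the mean of single-cell CPM, from 0.01 to -0.05. Cdk1 and Top2a were higher in all 6 with a median log2 difference of at least 1 (1.17 and 1.01), 2 of 46 members tested beside 1.04% of all genes. A looser count, the same sign in all 6, gave 22 of 46 members higher and none lower, beside 17.0% and 4.21% of all genes. By pair, at least 2-fold higher members were 34 of 46 in 5 IU/mL on day 5, beside 7.29% of all genes, 21 of 43 in 5 IU/mL on day 10, beside 6.78%, and 22 of 31 in 50 IU/mL on day 10, beside 2.77%. The 50 IU/mL pair of day 5 had 2, beside 5.73%. In the pairs of day 3 no member was 2-fold apart in either direction, beside 0.0866% of all genes at 5 IU/mL and 3.32% at 50 IU/mL. The consistent count of 2 was 0 with TMM scaling, with a pseudocount of 10 CPM or without day 10. It was 5 without the large cells and 20 without day 3. No share of all genes is given for these alternative counts, so they are not read further. Psrc1, which helps chromosomes congress on the spindle, was the 1 member at least 2-fold lower with IL-2v in 5 IU/mL on day 10. It was at 8.70 against 27.2 CPM, 1 of 43 members tested, beside 7.74% of all genes that were lower.

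IL-2v was also above IL-15 in all 6 pairs of summed level, from 1.16-fold in 5 IU/mL on day 3 to 5.24-fold in 5 IU/mL on day 10. In 5 IU/mL on day 5 it was 1.84-fold, and 2.78-fold without cells over 2 times the median UMIs. Here 12 of 46 members passed the consistent rule, beside 2.48% of all genes: Cenpe (median 1.42), Mki67 (1.34), Bub1 (1.31), Cdca2, Tacc3, Hmmr, Kif11, Cdk1, Cdca8, Cenpf, Dlgap5 and Ect2. Cenpe is the kinetochore motor that moves chromosomes to the spindle equator, and Ect2 starts the cleavage furrow. The same sign in all 6 was found for 38 of 46 members, beside 19.1% of all genes. By pair, 26 of 46 were at least 2-fold higher in 5 IU/mL on day 5 (6.39% of all genes), 29 of 50 in 50 IU/mL on day 5 (8.74%), 38 of 42 in 5 IU/mL on day 10 (10.7%) and 11 of 32 in 50 IU/mL on day 10 (9.03%). Of the members tested in these 4 pairs, 11, 12, 29 and 11 reached 20 CPM in the IL-2v library alone. No member was 2-fold apart in the pairs of day 3, beside 0.453% of all genes at 5 IU/mL and 2.92% at 50 IU/mL. The count of 12 rests on the pairs of the later days together: it was 1 without day 5, 1 without day 10 and 29 without day 3. It was 6 with TMM scaling, 3 with a pseudocount of 10 CPM and 28 without cells over 2 times the median UMIs. No share of all genes is given for these alternative counts, so they are not read as results about the members.

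IL-15 and IL-2 had no common order. The summed level with IL-15 was 1.10-fold lower in 5 IU/mL on day 3, 1.14-fold higher in 5 IU/mL and 1.48-fold lower in 50 IU/mL on day 5, and 2.69-fold lower in 5 IU/mL and 1.41-fold higher in 50 IU/mL on day 10. In 50 IU/mL on day 3 it was 0.994-fold. Without cells over 2 times the median UMIs, the 5 IU/mL pair of day 5 turned, with IL-15 1.09-fold lower, and the 5 IU/mL pair of day 10 was 1.67-fold lower. The larger of these gaps were 9 of 47 members at least 2-fold lower in 50 IU/mL on day 5, beside 8.01% of all genes, and 27 of 37 lower in 5 IU/mL on day 10, beside 9.19%, where 24 of the 37 reached 20 CPM with IL-2 alone. Psrc1 alone was lower with IL-15 in all 6 pairs with a median of at least 1 in size (-1.15), 1 of 42 members beside 1.7% of all genes, and it no longer passed without cells over 2 times the median UMIs, with a pseudocount of 10 CPM or without day 10. No member was consistently higher.

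The order of the 2 doses was not the same on each day, a difference that was not tested. On day 3, no member was 2-fold apart between 50 and 5 IU/mL of any cytokine, beside 0.0176% of all genes in the IL-15 comparison, 5.46% in that of IL-2 and 2.89% in that of IL-2v. On day 5, the 50 IU/mL libraries were higher, by 2.02-fold in the sum for IL-2, 1.26-fold for IL-2v and 1.20-fold for IL-15. For IL-2, 34 of 47 members were at least 2-fold higher, beside 14.1% of all genes, led by Bub1 (2.50), Gas2l3 (2.03), Mki67 (1.94) and Kif11 (1.92). For IL-2v 1 member was (Psrc1), beside 4.21%, and for IL-15 none, beside 2.13%. Without cells over 2 times the median UMIs, 19 of 35 members were higher for IL-15, beside 3.19% of all genes. Those cells held 53.2% and 31.1% of the member UMIs at 5 and 50 IU/mL.

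On day 10 the order was the reverse for IL-2 and IL-2v. With IL-2, 28 of 37 members were at least 2-fold lower at 50 than at 5 IU/mL, beside 14.5% of all genes, and the sum was 1333 against 3492 CPM. Of those 37, 19 reached 20 CPM at 5 IU/mL alone. With IL-2v, 30 of 43 were lower, beside 6.14%, and the sum was 2796 against 6807 CPM. Of those 43, 12 reached 20 CPM at 5 IU/mL alone and 1 at 50 IU/mL alone. Ndc80 (-2.35), a kinetochore subunit that binds microtubules, Cdc20 (-2.34), Ccnb2 (-2.33) and Hmmr (-2.14) were lowest for IL-2, and Nusap1 (-1.89), Nuf2 (-1.87), Aurkb (-1.69) and Hmgb2 (-1.64) for IL-2v. With IL-15, the 50 IU/mL library was above the 5 IU/mL one, at 1884 against 1299 CPM. At least 2-fold higher were 9 of 21 members, beside 3.33% of all genes. Of those 21, 8 reached 20 CPM at 50 IU/mL alone. The count of 9 rose with totals without ribosomal and mitochondrial genes, as given in the closing section. Between these IL-15 libraries Mki67 had 41.4 against 1.33 CPM and Ube2c 34.7 against 1.46.

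Large cells weighed unequally on these day 10 values. In 5 IU/mL IL-2, cells over 2 times the median UMIs were 8.82% of cells and held 50.0% of the member UMIs. In 50 IU/mL IL-2 they were 7.09% with 17.7%. Without them, 5 of 24 members tested were 2-fold lower in place of 28 of 37, beside 14.2% of all genes, and the log2 ratio of the sums was -0.74 in place of -1.39. For IL-2v it was -1.27 in place of -1.28. For IL-15 it was 0.20 in place of 0.54, and large cells held 33.0% of the member UMIs at 50 IU/mL and 10.8% at 5 IU/mL. Taking the mean of single-cell CPM, in which each cell counts alike, gave 13 of 28 members lower for IL-2, beside 13.5% of all genes, and 18 of 39 for IL-2v, beside 4.93%.

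**Figure D3:**
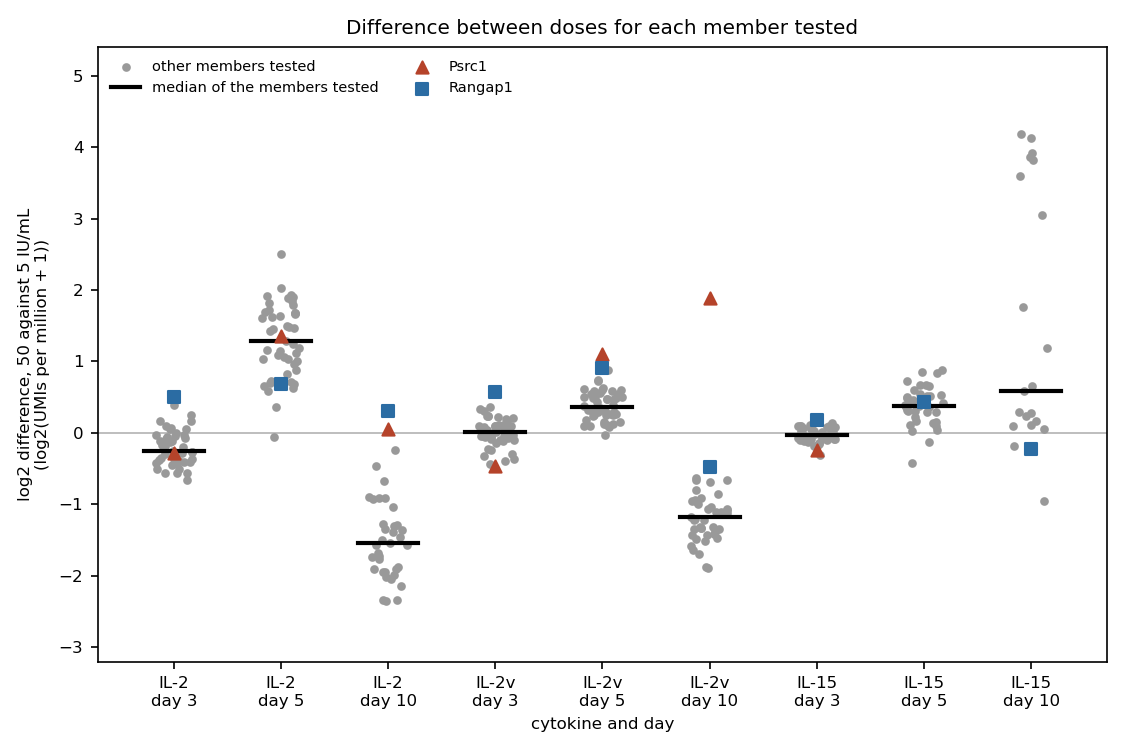
Log2 difference between 50 and 5 IU/mL (y axis, on log2(CPM + 1)) of each member that reached 20 CPM in either library, for each cytokine and day (x axis), with the median of the members as a black line. Medians were 1.29 for IL-2 on day 5, -1.54 for IL-2 and -1.17 for IL-2v on day 10, while Psrc1 was at 0.06 and 1.89 in the latter 2 steps and Rangap1 at 0.31 and -0.47.

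From day 3 to day 5, 41 of 47 members were at least 2-fold lower with 5 IU/mL IL-2, beside 11.6% of all genes, and 32 of 47 with 5 IU/mL IL-15, beside 8.3%. With 50 IU/mL IL-15 it was 6 of 47, beside 3.41%, and with 50 IU/mL IL-2 Rangap1 alone, at 71.2 against 164 CPM, beside 6.16%. Without cells over 2 times the median UMIs, the count for 50 IU/mL IL-15 was 17 of 45, beside 4.34%. In both IL-2v cultures no member was 2-fold apart, beside 3.41% of all genes at 5 IU/mL and 2.57% at 50 IU/mL. The sum was 2.38-fold and 1.89-fold lower with 5 IU/mL IL-2 and IL-15, and 1.20-fold lower with 5 IU/mL IL-2v. Without the large cells, the value for 5 IU/mL IL-15 was 3.06-fold.

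From day 5 to day 10, 44 of 47 members were at least 2-fold lower with 50 IU/mL IL-2, beside 19.4% of all genes, and 48 of 50 with 50 IU/mL IL-2v, beside 11.6%. With IL-15 it was 25 of 35 at 5 IU/mL, beside 3.46%, and 26 of 38 at 50 IU/mL, beside 4.44%. Without the large cells, the count at 5 IU/mL was 10 of 21, beside 2.17%, and the log2 ratio of its sums -0.84 in place of -1.62. The sum was 5.29-fold lower with 50 IU/mL IL-2 (5.23 to 5.36), 3.31-fold with 50 IU/mL IL-2v, 3.07-fold with 5 IU/mL IL-15 and 2.53-fold with 50 IU/mL IL-15. No member was 2-fold lower with 5 IU/mL IL-2, beside 2.02% of all genes, or with 5 IU/mL IL-2v, beside 4.21%. Their sums on day 10 were 3492 against 3499 CPM and 6807 against 7317 CPM, and Psrc1 alone was 2-fold higher with 5 IU/mL IL-2, beside 4.62% of all genes. Nusap1 had the lowest value for both 50 IU/mL cultures, -4.30 with IL-2 and -2.81 with IL-2v. Mki67 was lowest for both IL-15 cultures, -5.82 at 5 IU/mL and -2.52 at 50 IU/mL.

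The ratio of summed members to the summed 45 genes of a DNA replication list was 2.56 without cytokine, 1.96 in 50 IU/mL IL-2 and 1.83 in 50 IU/mL IL-2v on day 3. On day 5 it was 2.41, 3.74 and 2.81. In 50 IU/mL IL-2, 21 of 41 replication genes were at least 2-fold lower on day 5 than on day 3, beside 6.16% of all genes. Their median was -1.01, close to the 2-fold line, while the median of the members was under 0.1 in size. In 50 IU/mL IL-2v the median of the replication genes was -0.67 and that of the members 0.08. The sign of both member medians changed with the scaling. The pair was -1.39 and -0.66 in 50 IU/mL IL-15. The ratio was highest in 5 IU/mL IL-2 on day 5, at 4.06. It was lowest in 5 IU/mL IL-15 on day 10, at 1.54, near the 1.62 of naive cells. These ratios depend on the members taken. With the 41 members without other roles, the ratio was highest in 50 IU/mL IL-2 on day 5, at 2.29, and 1.84 in 5 IU/mL IL-2. Without cytokine it went from 1.39 on day 3 to 0.73 on day 5, and it was 0.33 in naive cells and 0.24 in 5 IU/mL IL-15 on day 10.

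Single cells were compared after thinning each to 2000 UMIs, which left out the 57 to 393 shallower cells of a library. At least 3 UMIs of the 51 members were present in 44.2% of naive cells (42.7% to 45.6%), at a median depth of 3799 UMIs before thinning. The share in naive cells, which rest outside the cycle, is used as the reference level for the others. Some naive cells did carry these UMIs at a high level, as given below for Mki67 and Top2a. The 41 members without other roles gave 3 UMIs in 1.50% of naive cells. With all 51 members and no thinning, the naive share was 77.2%, and the others ran from 65.3% to 98.7%. The share with all members was 60.5% without cytokine on day 5 and 50.8% in 5 IU/mL IL-2, against the order of their sums, and it was at or below the naive share in 3 libraries of day 10. It is therefore not read further, and the shares below are those of the 41 members. That choice followed the values, so a match of these shares with the sums is not support for either. On day 5, 3 of the 6 cytokine libraries were above the library without cytokine and 3 below with all 51 members, without overlap of the intervals. With the 41 members all 6 were above.

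On day 3, 52.3% to 85.3% of cells had at least 3 UMIs of the 41 members: 58.6% without cytokine, 62.4% and 71.1% in 5 and 50 IU/mL IL-2, 63.2% and 85.3% in IL-2v, and 52.3% and 53.0% in IL-15. On day 5 it was 4.31% without cytokine, 10.5% and 50.4% in IL-2, 33.0% and 58.9% in IL-2v, and 10.9% and 17.2% in IL-15. On day 10 it was 11.8% and 6.95% in IL-2, 31.2% and 16.6% in IL-2v, and 0.91% and 6.12% in IL-15. The share in 5 IU/mL IL-15 on day 10 was not above that of naive cells. The 50 IU/mL IL-2 library of day 3 had a higher share but a lower summed level of the 41 members than the library without cytokine (4101 against 4380 CPM) and the 5 IU/mL IL-2 library (4770 CPM). Between days 3 and 5 of 50 IU/mL IL-2v the share was lower on day 5 but the sum of the 41 members higher, at 5480 against 4860 CPM. Share and sum also went opposite ways between days 3 and 5 of 50 IU/mL IL-2, between the IL-15 doses of day 3, and between 50 IU/mL IL-15 and IL-2 on day 10. No order is read from the shares in these pairs. IL-2v was above IL-2 without overlap of the intervals in 5 of the 6 pairs, and above IL-15 in all 6.

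**Figure D4:**
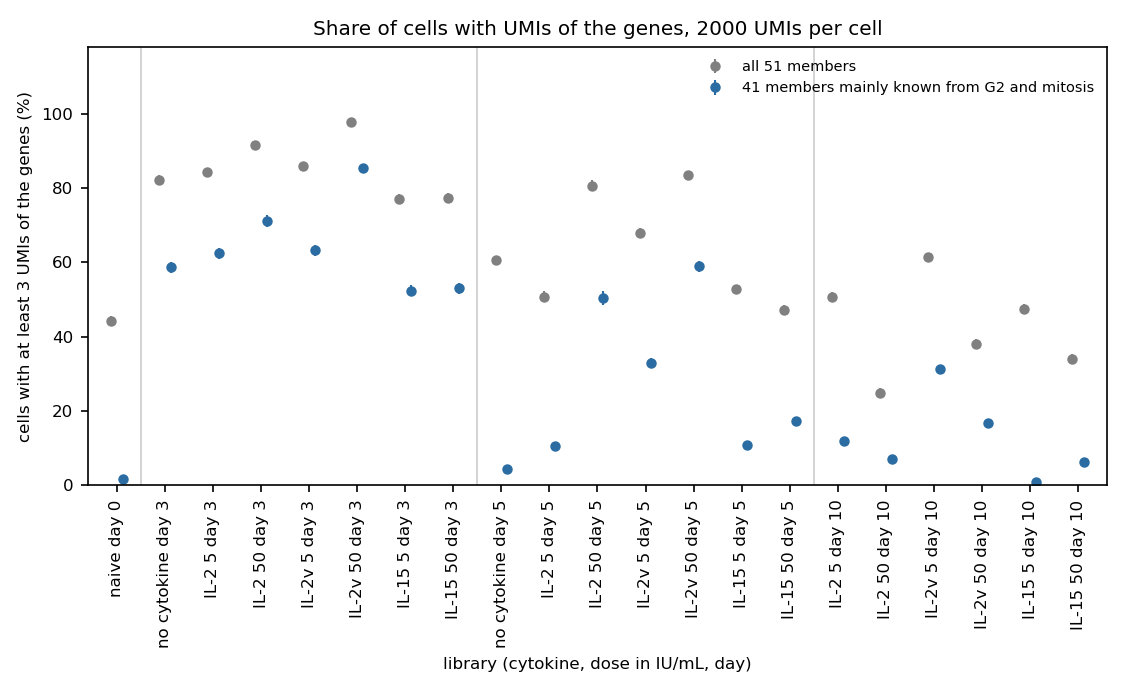
Share of cells with at least 3 UMIs of all 51 members (grey) or of the 41 mainly known from G2 and mitosis (blue), in % (y axis), in each library (x axis), after thinning to 2000 UMIs per cell, with exact 95% intervals that are mostly smaller than the points. Naive cells were at 44.2% and 1.50%, and on day 10 the grey points lie on both sides of the naive value, between 24.8% and 61.3%, while the blue ones reach 31.2%.

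Cells were also chosen by at least 1 UMI of Mki67 or Top2a, and the other 49 members were measured in them. Such cells were 1.74% of naive cells, 46.9% to 78.3% on day 3, 7.63% without cytokine and 60.0% in 50 IU/mL IL-2v on day 5, and 2.71% to 32.0% on day 10. Their level of the 49 genes was 9865 CPM without cytokine on day 3, 9891 and 9889 in 5 IU/mL IL-2 on days 3 and 5, and 11655 at the highest, in 5 IU/mL IL-2v on day 5. It was 5430 without cytokine on day 5, 5738 in 50 IU/mL IL-2 and 6121 in 50 IU/mL IL-15 on day 10, and 6904 in naive cells. In 5 IU/mL IL-15 on day 10 it was 1452 CPM (1317 to 1597), close to the 1304 of the other cells of that library. The range depends on how cells are chosen. Cells with at least 3 UMIs of the DNA replication list were 11.3% to 96.4% of a library, and all 51 members summed in them to between 1345 CPM, in 5 IU/mL IL-15 on day 10, and 11800.5, in 5 IU/mL IL-2v on day 5. They were at 1796 CPM in naive cells and 2962 without cytokine on day 5.

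Cells without a UMI of either gene were at 821 to 2238 CPM on days 5 and 10, with naive cells at 1241. On day 3 they were higher, between 2371 and 5045 CPM, the latter in 50 IU/mL IL-2v.

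**Figure D5:**
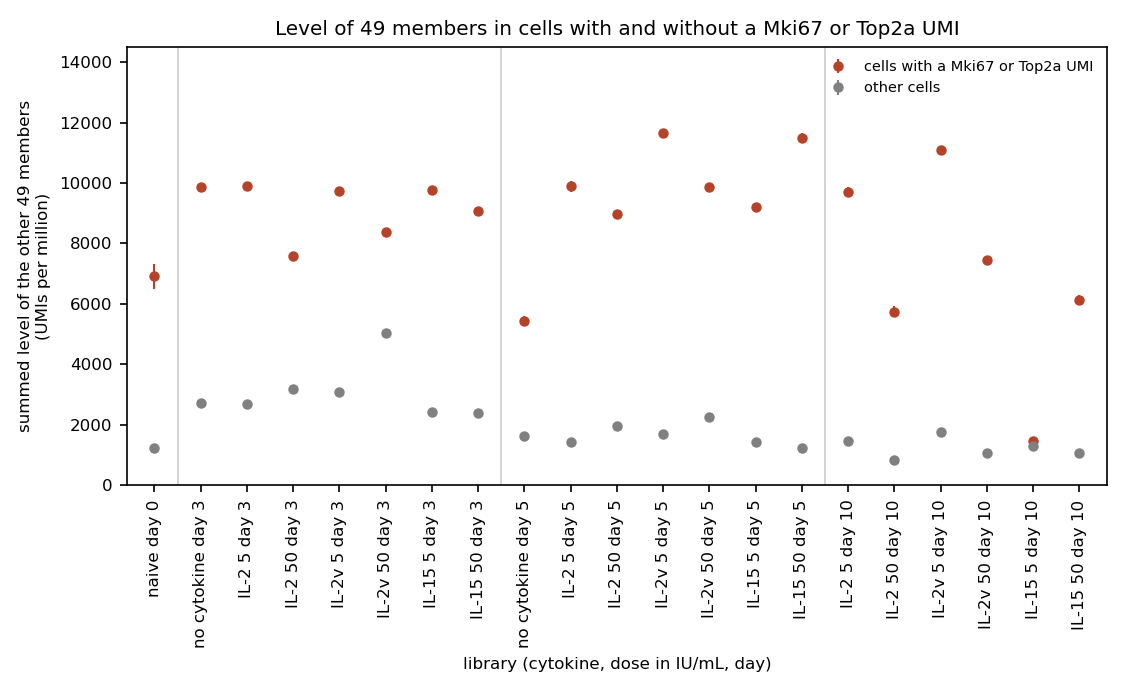
Summed level of the other 49 members in CPM (y axis) in cells with a Mki67 or Top2a UMI (red) and in the other cells (grey) of each library (x axis), after thinning, with exact 95% counting intervals. The red points lie between 5430 and 11655 except in 5 IU/mL IL-15 on day 10, where red and grey nearly meet at 1452 and 1304.

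Most of the 49 members followed these 2 classes closely. Taking the median over libraries, Nusap1 was at 299 CPM in cells with a Mki67 or Top2a UMI and 3.96 in the others, Cdk1 at 176 and 4.43, and Kif11 at 145 and 3.60. The least separated were Psrc1 (24.8 and 19.2 CPM), Lbr (275 and 134), Smc4 (412 and 170), Anp32e (238 and 90.3) and Rangap1 (146 and 44.4). All but Psrc1 are among the 10 members with other roles, a list made with earlier results of these data known.

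The levels of Psrc1 also had an order of their own. It was at 0.22 CPM in naive cells, 17.3 to 33.1 on day 3 and 4.21 to 31.0 on day 5. On day 10 it was at 27.2 and 28.4 CPM in 5 and 50 IU/mL IL-2, 8.70 and 35.1 in IL-2v, and 0.56 and 4.33 in IL-15. Its highest value of all 21 libraries was thus in 50 IU/mL IL-2v on day 10. There 42 of the 43 members tested were below 5 IU/mL, with no share of all genes beside this count. Of the 43, 12 reached 20 CPM at 5 IU/mL alone and Psrc1 at 50 IU/mL alone, so their signs follow from the filter. In 50 IU/mL IL-2v on day 10, cells with and without a Mki67 or Top2a UMI had 37.2 and 36.0 CPM, and 332 of 4948 cells (6.71%) had a Psrc1 UMI. The classes of 50 IU/mL IL-2 on day 10 had 29.0 and 30.2 CPM. In naive cells 3 of 4471 (0.067%) had a UMI, and in 5 IU/mL IL-15 on day 10, 6 of 5394 (0.111%). At such levels the class values of Psrc1 rest on few UMIs.

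Rangap1 encodes a protein that stimulates GTP hydrolysis by Ran at nuclear pores and the kinetochore. Rangap1 was higher at 50 than at 5 IU/mL in 7 of the 9 pairs of equal cytokine and day, as were Cbx5 and Anp32e. It was among the 4 highest members in 6 of the 9, more often than any other member. On day 3 it was at 93.5 CPM without cytokine, 116 and 164 in IL-2, 122 and 181 in IL-2v, and 106 and 121 in IL-15. Cells without a Mki67 or Top2a UMI had 36.4 CPM without cytokine, 91.4 in 50 IU/mL IL-2 and 124 in 50 IU/mL IL-2v. On day 10 it was 39.9 and 49.8 CPM in IL-2, 90.6 and 65.1 in IL-2v, and 46.6 and 39.6 in IL-15 against 52.9 in naive cells.

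Smc4 followed a different course. It was at 316 CPM in naive cells and 302 to 362 on day 3. On day 5 it was at 486 CPM without cytokine and 259 to 426 with cytokine. On day 10 it was at 300.5 CPM in 5 IU/mL IL-15, 154 in 50 IU/mL IL-15 and 63.8 in 50 IU/mL IL-2. Without cytokine on day 5, the cells without a Mki67 or Top2a UMI had 517 CPM and those with one 508, against 224 and 412 on day 3. Cells without these UMIs had 330 CPM of Smc4 in naive cells, 345 and 314 in 5 IU/mL IL-15 on days 5 and 10, and 50.3 in 50 IU/mL IL-2 on day 10.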

How the data were processed

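The authors deposited 1 table of raw UMI counts per library, and per the submitters' processing notes Cell Ranger (version not given there), Seurat 3.0.2 and Seurat 4.0.1 and the build mm10 were used. From these counts, cells with at least 1000 UMIs, 500 genes and at most 10% mitochondrial UMIs were summed per library and divided by the total to give CPM. A difference is that of log2(CPM + 1). A gene was tested where either library reached 20 CPM (for cytokine families, the mean over the pairs) and counted as apart from a log2 difference of 1, or, for families, with 1 sign in all 6 pairs and a median of at least 1 in size. Each condition had 1 library and hence no replicate spread of its own, and no statistical test was run. No doublet caller was run, and cells over 2 times the median UMIs were left out as an alternative. Cells were thinned to 2000 UMIs for shares and classes. Intervals are exact Poisson or Clopper-Pearson intervals at 95%. Other alternatives were TMM scaling (edgeR 4.0.16 in R 4.3.3), totals without ribosomal and mitochondrial genes, the mean of single-cell CPM, a pseudocount of 10 CPM and no filter. The first and second of these moved the median log2 difference of all genes by up to 0.41 and 0.29. Gene overlaps came from GENCODE on GRCm38. The scripts for differences and calls were tested on simulated data. The 51 members and all lists were chosen with earlier results of these data known. Genes named are the 4 highest and 4 lowest per comparison and the highest and widest-ranging of each role. G2e3, Hjurp, Psrc1, Rangap1, Smc4 and others were singled out after their values were seen.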

Additional observations from a re-analysis of the deposited data

Results flagged for a closer look

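The step from 5 to 50 IU/mL on day 10 went one way for IL-2 and IL-2v and the other way for IL-15. For the summed 51 genes, the log2 ratio of 50 over 5 IU/mL came to -1.39 with IL-2 and -1.28 with IL-2v. With IL-15 it came to 0.54. Each value compares 1 library with 1 other, and the difference between the cytokines was not tested. Without cells over 2 times the median UMIs the values were -0.74, -1.27 and 0.20.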

How the results depend on the processing

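Of 508 alternative counts for 70 results, 452 stayed within 1.5 times the main count and 56 moved by more. The 452 include main counts of 0 that stayed 0, for which a bound of 1.5 times has no meaning. Comparisons with no member apart entered once for each direction. The 452 thus overstates how stable the other counts were. Of 343 alternatives for 77 values (shares of cells, levels in classes of cells and log2 ratios of sums), 82 stayed within the counting interval and 261 moved by more, and no log2 ratio of at least 1 in size changed sign. The cause of the other changes was not tested. Without cells over 2 times the median UMIs, the members called were 8 in place of 22 for 5 IU/mL IL-15 against no cytokine on day 5, 5 in place of 28 for the IL-2 dose on day 10, 2 in place of 1 and 19 in place of 0 for the IL-2v and IL-15 doses on day 5, 10 in place of 25 for 5 IU/mL IL-15 from day 5 to day 10, and 17 in place of 6 for 50 IU/mL IL-15 from day 3 to day 5. The consistent counts became 5 for IL-2v against IL-2 (main 2), 0 for IL-15 against IL-2 (main 1) and 28 for IL-2v against IL-15 (main 12). With TMM scaling these were 0 for the first and 6 for the last, the IL-2v dose on day 5 gave 0, 5 IU/mL IL-2v from day 5 to day 10 gave 1 higher in place of 0, and 50 IU/mL IL-15 from day 3 to day 5 gave 3. With totals without ribosomal and mitochondrial genes, the last was also 3, IL-2v against IL-15 was 7, the IL-2v dose on day 5 was 0 and the IL-15 dose on day 10 was 16 in place of 9.

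With the mean of single-cell CPM, the counts were 1 for 50 IU/mL IL-2v against no cytokine on day 3 (main 0), 13 for 5 IU/mL IL-15 on day 5, 13 and 18 for the IL-2 and IL-2v doses on day 10 (main 28 and 30), 3 and 5 for the IL-2v and IL-15 doses on day 5, 1 lower for 5 IU/mL IL-2v and 13 for 50 IU/mL IL-15 from day 3 to day 5, 1 for IL-2v against IL-2 and 24 for IL-2v against IL-15. With a pseudocount of 10 CPM they were 7 for 5 IU/mL IL-2 (main 15) and 13 for 5 IU/mL IL-15 on day 5, 0 for the IL-2v dose on day 5, 19 for the IL-2v dose on day 10, 0 for 5 IU/mL IL-2 from day 5 to day 10 (main 1), 20 and 2 for 5 and 50 IU/mL IL-15 from day 3 to day 5 (main 32 and 6), and 0, 0 and 3 for IL-2v against IL-2, IL-15 against IL-2 and IL-2v against IL-15. Without the expression filter, more genes enter: 26 for 5 IU/mL IL-2 on day 5, 34 for the IL-15 dose on day 10 and 40 for 5 IU/mL IL-15 from day 5 to day 10. Without day 3, IL-2v against IL-2 gave 20 and IL-2v against IL-15 gave 29. Without day 5 the latter gave 1. Without day 10, the counts were 0 for IL-2v against IL-2, 0 for IL-15 against IL-2 and 1 for IL-2v against IL-15. Shares of all genes are given above for some of these alternative counts only. The others are not read as results about the members.

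Pairs of libraries whose shares of cells did not overlap moved too. With the 41 narrower members in place of all 51, IL-15 exceeded IL-2 in 0 pairs (main 1), 50 IU/mL was below 5 IU/mL in 2 (main 4), and on day 5 cytokine was above none in 6 and below in 0 (main 3 and 3). Thinned to 1000 UMIs, 50 IU/mL was below 5 IU/mL in 2 and cytokine below none on day 5 in 1. Without thinning, day 10 was above day 5 in 1 and below in 2 (main 0 and 5), and cytokine above none on day 5 in 1.

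No paired analysis by replicate was possible because the groups compared share fewer than 2 replicate numbers. The pairs matched in day and dose were described only. No paired test across them and no additive model of cytokine, dose and day was run. Without replicates, culture-to-culture spread is unknown, and members under 20 CPM in both libraries were not compared.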
